A study of Mus musculus with 12 samples.

Results

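The transcriptomes of 2 uninduced mouse cultures were compared gene by gene. Both were differentiated in vitro towards cardiomyocytes from CM7/1, a murine embryonic stem cell line. The first carried an inducible Hey1 gene and the second an inducible Hey2 gene, and neither had received doxycycline. Genes were compared when the deposited table listed an RPKM, a read density scaled to gene length and library size, in both libraries and the mean of both was at least 1 RPKM. This left 11175 of the 23427 genes in the table. A further pair of libraries, from cultures of the same 2 lines given 1000 ng/ml doxycycline for 48 h, shares no library with this contrast and is set beside it throughout. Each line and treatment had 1 library, so no gene has a replicate check and no test was made. Whether a line is 1 clone, the promoter that drives the transgene, the day of differentiation and any selection of the cardiomyocytes are not stated in the labels.

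Differentiation of embryonic stem cells gives a mixed culture in which beating cardiomyocytes stand beside cells that have not left the pluripotent or early embryonic state. Cardiomyocytes are filled with sarcomeres, the repeated units in which myosin thick filaments pull on actin thin filaments, and with mitochondria that supply their ATP. Pluripotent cells divide fast, hold few mitochondria and depend on the transcription factors Oct4 (gene Pou5f1), Sox2 and Nanog. Hey1 and Hey2 are basic helix-loop-helix repressors that act downstream of Notch receptors in the heart and vessels.

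Both libraries are labelled cardiomyocytes, and both held the defining markers of that type at very different levels. All 10 cardiomyocyte markers were listed in both, with a summed level of 16510.5 RPKM in the uninduced Hey1-line library and 1020.3 RPKM in the uninduced Hey2-line library. Myh6, the fast cardiac myosin heavy chain, stood at 1704 and 146 RPKM. Nkx2-5, a homeodomain factor of the heart field, stood at 52.6 and 2.97 RPKM. The 8 pluripotency markers were also listed in both libraries and summed to 39.1 RPKM in the Hey1 line and 356 RPKM in the Hey2 line. Pou5f1 was listed at 9.93 and 98.1 RPKM, Sox2 at 4.02 and 36.8 RPKM, and Nanog at 2.79 and 37.3 RPKM. Each library carried transcripts of both states, and cardiomyocyte markers summed to more than pluripotency markers in both. The induced libraries stood in the same order, with 17204 against 1073 RPKM of cardiomyocyte markers and 30.3 against 378 RPKM of pluripotency markers. In bulk RNA, fewer cells of a type and less RNA per cell cannot be told apart.

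Markers of other cell types ranged from blank to a summed 311 RPKM. A blank cell means fewer than about 10 reads in the Hey1 line against 5 in the Hey2 line, and the table holds no zeros. The blood markers Ptprc, Gata1 and Hbb-bh1, the trophoblast markers Cdx2, Elf5 and Prl3d1, the myogenic factors Myod1 and Myog, the epicardial factor Tcf21 and the neuronal gene Dcx were blank in all 4 libraries. The 4 endothelial markers summed to 2.69 RPKM in the Hey1 line and 6.86 RPKM in the Hey2 line, and the 5 fibroblast markers to 39.9 and 51.5 RPKM. The 3 epithelial markers summed to 7.15 and 184 RPKM. The 4 smooth muscle markers, among them Acta2, which early cardiomyocytes also express, summed to 311 and 138 RPKM. The 5 yolk sac endoderm markers summed to 61.7 and 7.15 RPKM, mostly Afp in the Hey1 line. Ttr was also higher there, at 3.21 and 1.42 RPKM. Sox17 and Amn were blank in the Hey1 line and listed at 3.28 and 1.03 RPKM in the Hey2 line. The 4 neural markers summed to 16.5 and 4.81 RPKM, and in the Hey1 line Tubb3 was the only one listed. Pax6 and Sox1 were blank there and stood at 0.283 and 0.388 RPKM in the Hey2 line. T and Eomes, T-box factors of the primitive streak, were blank in the Hey1 line and listed at 17.6 and 5.86 RPKM in the Hey2 line, and the part of these cell types in the differences below was not tested.

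Listed genes held 3151196 reads in the library of the uninduced Hey1 line, where the median gene had 99 reads, and 2296145 reads in that of the uninduced Hey2 line, where it had 74. The transgenes followed the labels: Hey1 was listed at 0.735 RPKM in the uninduced and 8.59 RPKM in the induced Hey1 line, and Hey2 was blank in the uninduced and listed at 6.59 RPKM in the induced Hey2 line. Neither gene met the rule for comparison, since the mean of Hey1 was 0.9593 RPKM. In the uninduced libraries 288 genes were listed only in the Hey1 line and 2154 only in the Hey2 line, where listing starts at fewer reads.

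Between the uninduced libraries, 2251 genes (20.1% of those compared) were higher in the Hey2 line by at least 2-fold and 1444 were at least 2-fold lower (12.9%). This size was taken on log2(RPKM + 1), always as Hey2 line minus Hey1 line, and the added 1 RPKM understates the difference of low genes. With both libraries scaled to a median ratio of 1, the counts were 1539 higher and 1830 lower, so the share of higher genes among those past the size went from 60.9% to 45.7%. The median difference over all compared genes was 0.22 and the standard deviation across genes was 1.09. Differences of at least 4-fold were counted for 421 genes upward and 378 downward, while past 8-fold there were 50 higher and 98 lower genes. A 95% interval of the RPKM ratio excluded 1 for 8143 of the 11171 compared genes with recovered reads (72.9%). It also did so for 3693 of the 3695 genes past 2-fold. Those genes were picked by size on the same values, so that count is no separate support. These intervals are exact conditional binomial intervals on reads recovered from the RPKM values, and they cover counting error only.

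**Figure D1:**
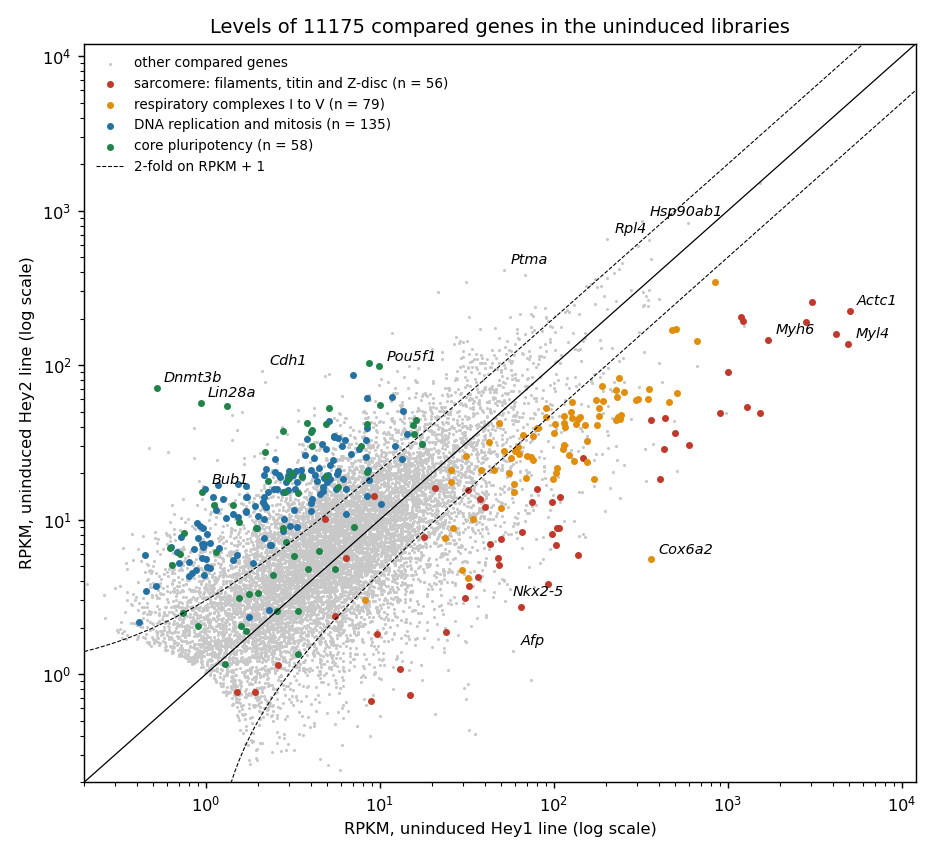
RPKM of each compared gene in the uninduced Hey1-line library (horizontal axis, log scale) and the uninduced Hey2-line library (vertical axis, log scale), 1 point a gene. Sarcomere and respiratory chain genes lie mostly below the equality line and genes of DNA replication, mitosis and pluripotency mostly above it; the dashed lines mark 2-fold on RPKM + 1, and Actc1 lies at 5041 and 225 RPKM.

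The difference fell unevenly over the range of levels. Among genes with a mean of 1 to 5 RPKM, 7.81% were at least 2-fold lower in the Hey2 line. That share was 12.9% between 5 and 20 RPKM, 24.9% between 20 and 100 RPKM and 47.8% among the 182 genes over 100 RPKM. The share at least 2-fold higher did not rise in the same way, at 15.6%, 23.3%, 24% and 17% in these 4 ranges. The added 1 RPKM shrinks differences most in the lowest range. The 10 most abundant genes took 15.4% of the summed RPKM in the Hey1 line against 4.37% in the Hey2 line. In the Hey1 line they were Actc1, Myl4, Myl7, Tnnt2, Myl2, Mhrt, Myh6, Mir3471-1, Tnnc1 and Myl3, that is 8 sarcomere genes, a noncoding transcript of the cardiac myosin locus and a microRNA gene. In the Hey2 line they were Mir3471-1, Hsp90ab1, Myo3a, Rpl4, Eef1a1, Rack1, Eef2, Rpl8, Hspa8 and Ptma, mostly genes of translation and protein folding. Mir3471-1 was listed at 1539 and 1515 RPKM and the unconventional myosin gene Myo3a at 594 and 836 RPKM. It is not given how reads with several matches were assigned, so the levels of Mir3471-1 and Myo3a are uncertain. Gene length (Spearman's rho 0.0729 over 11171 genes) and mean level (rho -0.0259 over 11175 genes) had little monotonic relation to the difference across genes, which are not independent replicates.

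Thick filament genes were lower in the Hey2 line as a block. Of 16 compared members 15 were at least 2-fold lower and none was 2-fold higher, and the median difference was -3.44 against 0.22 over all genes. Myl4, the essential myosin light chain of the embryonic heart and the atria, stood at 4940.2 RPKM in the uninduced and 4861 RPKM in the induced Hey1 line. In the Hey2 line Myl4 was listed at 138 and 139.7 RPKM, which is 35.9-fold lower in the uninduced pair (95% interval 33.3 to 38.7). Myl7, the atrial regulatory light chain, was 26.4-fold lower (24.2 to 28.8), and Myl3, the ventricular essential light chain, was 24.1-fold lower (21.3 to 27.2). The cardiac heavy chains differed less: Myh6 was 11.7-fold lower (11.4 to 12) and Myh7 was 11.1-fold lower (10.7 to 11.5). Mybpc3, which encodes cardiac myosin binding protein C, stood at 496 RPKM in the Hey1 line and 36.2 RPKM in the Hey2 line. The smallest difference was that of Mybph, 2.59 and 1.14 RPKM. The list took 9.08% of all summed RPKM in the Hey1 line against 0.56% in the Hey2 line.

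Thin filament genes and their partners followed. Of 17 compared members 15 were at least 2-fold lower, with a median of -3.12. Tnnc1, the calcium-binding troponin C of heart and slow muscle, stood at 1534 and 1485 RPKM in the uninduced and induced Hey1 line and at 48.7 and 45.5 RPKM in the Hey2 line. In the uninduced pair Tnnc1 was 31.5-fold lower (27.3 to 36.4). Actc1, the cardiac alpha-actin, was the most abundant gene of the Hey1 line, at 5041 and 5040.2 RPKM, against 225 and 217 RPKM in the Hey2 line. It was 22.4-fold lower (21.3 to 23.5). Tnni3 and Tnni1, the cardiac and slow troponin I, were 19.6-fold and 18.4-fold lower, and Tnnt2, cardiac troponin T, 11.8-fold lower. Acta1, the skeletal alpha-actin, was the member above 0, listed at 9.2 RPKM in the Hey1 line and 14.2 RPKM in the Hey2 line. In the induced libraries Acta1 stood at 6.11 and 21.6 RPKM.

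The upstream promoters of the thick and thin filament genes with the largest differences that hold a searched motif are shown. Both carry a CArG box, the element bound by serum response factor in muscle genes, but they were not picked for it. Each line gives the 250 bases before the start of the gene, 5' to 3' on the strand of the gene, from the RefSeq table of build GRCm38.p6, with motif matches in capitals. The Myl7 stretch lies on the minus strand of chromosome 11 from 5898783 to 5899032, and its capitals mark a CCAAT box that begins 79 bases before the start, an MCAT element at 70 bases and a CArG box at 61 bases. The Actc1 stretch lies on the minus strand of chromosome 2 from 114052876 to 114053125, and its capitals mark a CCAAT box on the opposite strand at 235 bases and a CArG box at 47 bases.
Myl7: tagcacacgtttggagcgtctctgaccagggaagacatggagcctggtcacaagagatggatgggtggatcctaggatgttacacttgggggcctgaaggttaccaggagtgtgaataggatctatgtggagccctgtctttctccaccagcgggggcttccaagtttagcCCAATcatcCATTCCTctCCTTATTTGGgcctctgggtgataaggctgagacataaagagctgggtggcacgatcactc
Actc1: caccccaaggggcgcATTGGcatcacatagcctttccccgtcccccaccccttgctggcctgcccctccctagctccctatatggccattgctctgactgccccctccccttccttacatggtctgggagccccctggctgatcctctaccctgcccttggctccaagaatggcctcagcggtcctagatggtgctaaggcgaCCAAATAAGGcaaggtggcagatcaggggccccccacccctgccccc

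Titin and Z-disc genes, which anchor the filaments at the ends of the sarcomere, showed 18 of 23 compared members at least 2-fold lower and none 2-fold higher (median -2.80). Cryab, a small heat shock protein bound to the Z-disc, was listed at 410 and 18.2 RPKM and was 22.5-fold lower. Synpo2l, an actin-bundling protein of the Z-disc, was 23.5-fold lower, and Tcap, the titin cap, 23.9-fold lower. Pdlim1, a PDZ and LIM protein of many cell types, was the furthest the other way, at 4.85 and 10.1 RPKM. Genes of the intercalated disc, the junction between cardiomyocytes, were at least 2-fold lower in 11 of 17 cases (median -1.12). Xirp1, a Xin-repeat actin-binding protein, was 23.8-fold lower, and Des, the muscle intermediate filament, was 8.17-fold lower. The tight junction scaffold Tjp1 stood at 13.4 and 23.1 RPKM. Genes of the dystrophin complex and caveolae, which tie the cytoskeleton to the membrane, were lower past 2-fold in 12 of 21 cases and higher in 2, with Cav3, the muscle caveolin, 18.7-fold lower.

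Calcium handling genes release and take up the calcium that triggers each beat, and 18 of 23 were at least 2-fold lower (median -2.28). Jph2, which holds the sarcoplasmic reticulum near the cell membrane, was 20.9-fold lower (17.2 to 25.6), at 76.5 and 3.67 RPKM. Casq2, the calcium store protein calsequestrin, was 12.7-fold lower, Ryr2, the calcium release channel, 8.73-fold lower and Atp2a2, the SERCA2 pump, 6.76-fold lower. Itpr1, the inositol trisphosphate receptor, stood at 1.55 RPKM in the Hey1 line and 3.94 RPKM in the Hey2 line. Of 20 ion channel and pump genes 12 were at least 2-fold lower, with a median of -1.47 that ranged from -2.2 to -0.67 over the alternatives. Hcn4, the pacemaker channel, was listed at 31.2 and 32.6 RPKM in the Hey1 line and at 0.687 and 0.533 RPKM in the Hey2 line, a 45.5-fold difference (27.4 to 81.6) in the uninduced pair. Popdc2, a membrane protein of heart and muscle, was 11.6-fold lower. Kcnj3, a subunit of the acetylcholine-gated potassium channel, was the furthest the other way, at 4.27 RPKM in the Hey1 line and 9.43 RPKM in the Hey2 line.

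Cardiac transcription factors were at least 2-fold lower in 23 of 30 cases, and 1 was at least 2-fold higher (median -1.71). Nkx2-5 was 17.7-fold lower (12 to 27.4) and Tbx20, a T-box factor of the myocardium, 15.9-fold lower (13.9 to 18.4). Lbh, a cofactor named for limb bud and heart, was 7.52-fold lower and Gata4, a zinc finger factor of heart and endoderm, 5.39-fold lower. Among natriuretic peptides and chamber genes 13 of 15 were at least 2-fold lower. Nppb, which encodes the B-type natriuretic peptide, stood at 140.3 and 7.8 RPKM, and Nppa, the atrial peptide, at 419 and 77.6 RPKM. Muscle chaperones split: 11 of 16 were at least 2-fold lower, among them Hspa1b at 32.5 and 0.433 RPKM, whose reads may be shared with its near-identical neighbour Hspa1a, and 2 were at least 2-fold higher, among them Hsp90aa1 at 26.6 and 137 RPKM.

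Genes of the respiratory chain were lower with a narrower spread. In complex I, which oxidises NADH, 33 of 37 compared subunit genes were at least 2-fold lower and none was higher, with a median of -1.52. In complexes II to V, which pass electrons to oxygen and make ATP, 35 of 42 were at least 2-fold lower and none 2-fold higher, with a median of -1.64. The complex I members ranged around modest differences: Ndufa11 was 7.67-fold lower, Ndufb10 5.44-fold lower and Ndufs4 was nearest to equal, at 25.5 and 21 RPKM. Cox6a2, the heart and muscle isoform of cytochrome c oxidase subunit 6a, had the largest difference of all compared genes on the log2(RPKM + 1) scale (-5.79). It was listed at 362 and 351 RPKM in the Hey1 line and at 5.54 and 4.97 RPKM in the Hey2 line, 65.3-fold lower (42.6 to 106) in the uninduced pair. Its ubiquitous relative Cox6a1 stood at 253 and 67.2 RPKM. Complex I took 1.87% of the summed RPKM in the Hey1 line against 0.656% in the Hey2 line, and complexes II to V took 4.93% and 1.59%.

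Other mitochondrial functions differed less evenly. Muscle energy and oxygen genes were lower past 2-fold in 13 of 17 cases and higher in 2 (median -2.52), led after Cox6a2 by Pgam2 and by Ckm, muscle creatine kinase. Of 43 fatty acid oxidation genes 27 were at least 2-fold lower and 5 at least 2-fold higher (median -1.27). Cpt1b, the muscle form of the enzyme that loads fatty acids for mitochondrial import, was 6.48-fold lower, and Acsl3, which activates fatty acids at lipid droplets, was 8.25-fold higher. Of 35 genes of the citric acid cycle and pyruvate import 14 were lower and 2 were higher past 2-fold (median -0.72), with the cytosolic isocitrate dehydrogenase Idh1 4.37-fold higher. Of 76 mitochondrial ribosome genes 9 were lower and 2 higher past 2-fold, with a median of -0.22 against 0.22 over all genes. The shares over all compared genes were 12.9% lower and 20.1% higher. Glycolysis genes had a median of -0.22 as well, with 9 of 26 lower and 2 higher past 2-fold. The lower ones among them include the muscle isozymes Pgam2 (512 and 20.5 RPKM) and Eno3 (239.7 and 13.9 RPKM), and the 2 higher ones include the glucose transporter Slc2a3 (8.67 and 103 RPKM).

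**Figure D2:**
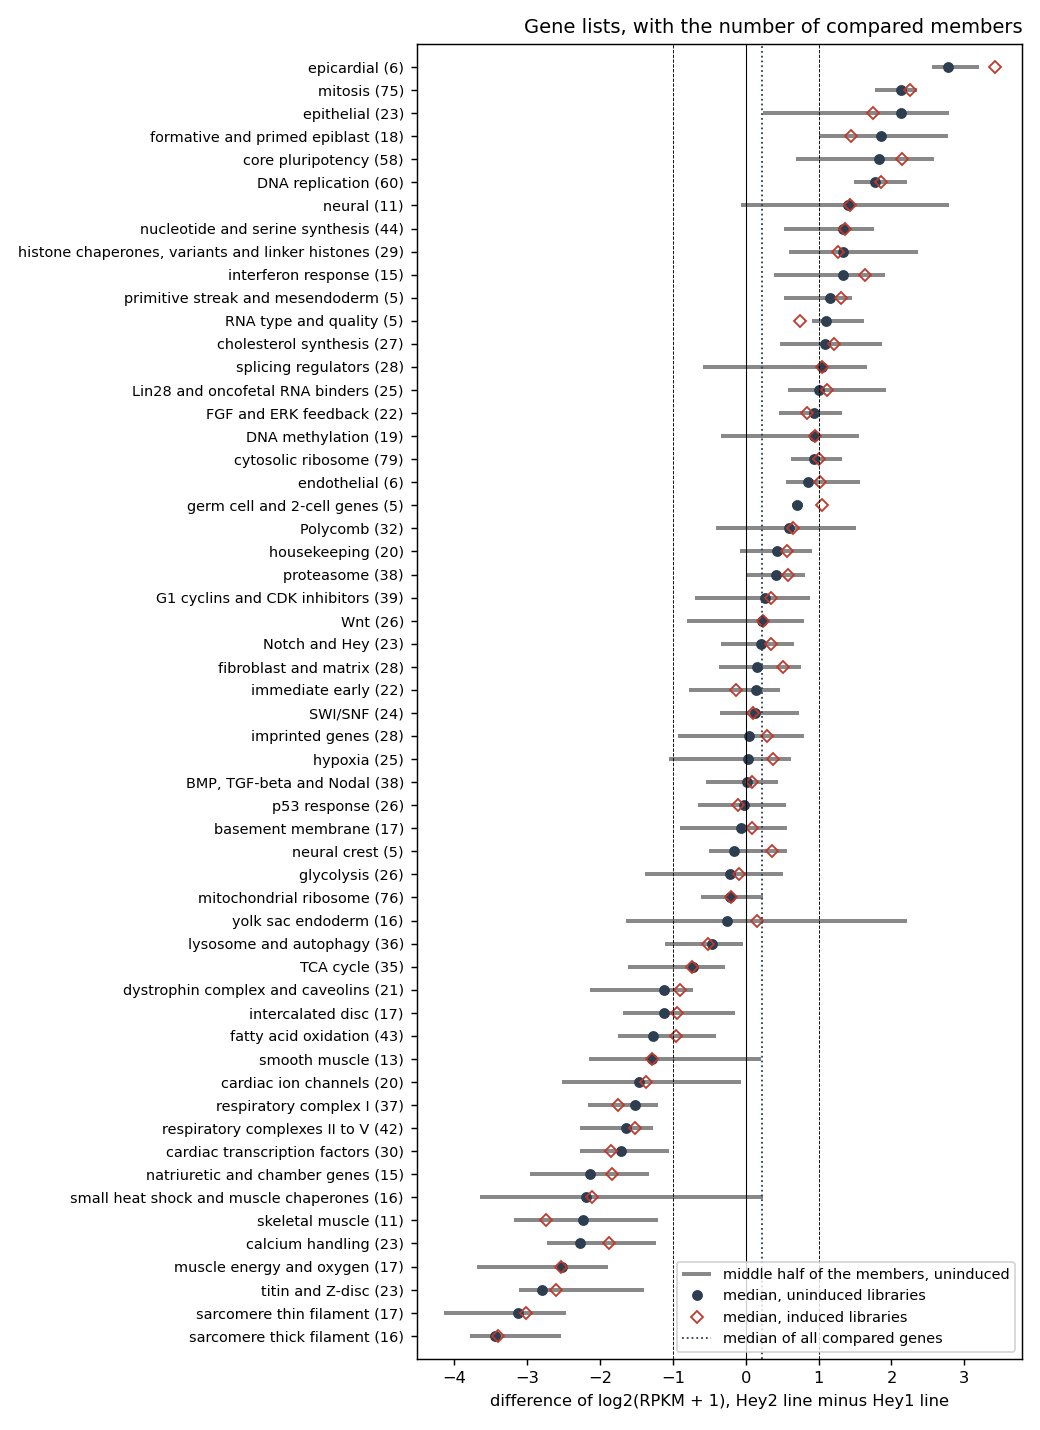
Median difference of log2(RPKM + 1), Hey2 line minus Hey1 line (horizontal axis), for each gene list with at least 5 compared members (vertical axis, members in brackets), with the range from the lower to the upper quartile as a bar and the median in the induced libraries as a diamond. Lists run from the sarcomere thick filament at -3.44 to epicardial genes at 2.77, and the dotted line marks 0.22, the median of all compared genes.

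Pluripotency genes were higher in the Hey2 line. Of 58 compared members of the core list 41 were at least 2-fold higher and none was 2-fold lower, with a median of 1.83. Dnmt3b, the de novo DNA methyltransferase of the early embryo, had the largest upward difference of all compared genes on that scale (5.57), at 0.521 and 0.332 RPKM in the Hey1 line and 71.4 and 49.4 RPKM in the Hey2 line. That is 137-fold higher (85.4 to 236) in the uninduced pair. Lin28a, an RNA-binding inhibitor of let-7 maturation, was 61.2-fold higher (40.9 to 95.9), and Tdgf1, the Nodal co-receptor Cripto, 40.7-fold higher (25.8 to 68.1). Pou5f1 was 9.88-fold, Sox2 9.15-fold and Nanog 13.4-fold higher. Not all members followed: Klf4 was listed at 2.57 RPKM in both libraries and Tet2, a dioxygenase of methylated DNA, at 3.37 and 1.34 RPKM. Genes of the formative and primed epiblast, the state just before gastrulation, were at least 2-fold higher in 13 of 18 cases and lower in 1 (median 1.85). Pim2, a serine-threonine kinase, was 35.4-fold higher and Cldn6, a tight junction protein of early embryonic epithelium, 31-fold higher. Cldn6 rested on 18 reads in the uninduced Hey1 line and was blank in the induced Hey1 line. Sox4, a SOX factor of many progenitors, was the member at least 2-fold lower, at 43.5 and 12 RPKM.

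Genes of cell division were higher almost without exception. All 60 compared DNA replication genes lay above 0, 56 of them at least 2-fold higher, with a median of 1.78 and quartiles of 1.49 and 2.21. All 75 mitosis genes lay above 0, 71 at least 2-fold higher, with a median of 2.13. Top2a, the topoisomerase that untangles replicated chromosomes, stood at 7.05 and 4.65 RPKM in the Hey1 line and at 86.3 and 91 RPKM in the Hey2 line, 12.2-fold higher (10.8 to 13.9) in the uninduced pair. Mcm6, part of the replicative helicase, was 7.27-fold higher and Tipin, a replication fork protein, 8.42-fold higher. Among mitosis genes Bub1, a checkpoint kinase, was 16-fold higher (11.2 to 23.6), Ncapg, a condensin subunit, 14.4-fold higher and Ccnb1, cyclin B1, 9.88-fold higher. The smallest differences were those of Tk1, thymidine kinase, at 10.1 and 12.7 RPKM, and Cenpm, a centromere protein, at 2.3 and 2.59 RPKM. Regulators of the G1 phase lay on both sides, with 8 of 39 higher and 6 lower past 2-fold. These shares are near the 20.1% and 12.9% of all compared genes. Ccne1, cyclin E1, was 6.98-fold higher and Mycn, a MYC factor, 6.39-fold higher, while Gadd45g, a growth arrest gene, was 15.8-fold lower and Cdkn1a, the CDK inhibitor p21, 5.04-fold lower.

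The upstream promoters of Bub1 and Dnmt3b, the mitosis and core pluripotency genes with the largest differences that hold a searched motif, are shown for the same 250 bases of build GRCm38.p6. The Bub1 stretch lies on the minus strand of chromosome 2 from 127831860 to 127832109. Its capitals mark a GC box that begins 115 bases before the start and CCAAT boxes at 68 bases, on the opposite strand, and at 42 bases. The Dnmt3b stretch lies on the plus strand of chromosome 2 from 153649199 to 153649448. Its capitals mark a CHR element on the opposite strand at 128 bases, GC boxes at 60 and 54 bases, and a GC box on the opposite strand at 12 bases.
Bub1: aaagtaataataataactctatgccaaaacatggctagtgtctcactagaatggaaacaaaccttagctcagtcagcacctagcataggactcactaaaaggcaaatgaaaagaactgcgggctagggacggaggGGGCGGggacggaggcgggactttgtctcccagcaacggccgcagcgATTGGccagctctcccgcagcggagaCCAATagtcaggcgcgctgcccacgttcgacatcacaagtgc
Dnmt3b: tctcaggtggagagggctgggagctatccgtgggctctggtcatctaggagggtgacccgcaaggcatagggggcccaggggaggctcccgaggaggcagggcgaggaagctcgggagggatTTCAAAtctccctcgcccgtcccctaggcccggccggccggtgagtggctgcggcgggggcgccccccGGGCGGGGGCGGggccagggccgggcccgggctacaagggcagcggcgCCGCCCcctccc

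Chromatin regulators were mixed. Of 19 DNA methylation genes 8 were at least 2-fold higher and 2 at least 2-fold lower. Hells, a chromatin remodeller needed for DNA methylation, was 25-fold higher, and Uhrf1, which brings Dnmt1 to replicated DNA, 5.42-fold higher. Apobec2, a muscle-enriched member of the deaminase family, was 5.74-fold lower. Polycomb genes were higher past 2-fold in 12 of 32 cases and lower in 2, with the methyltransferase Ezh2 6.26-fold higher. SWI/SNF remodelling genes had a median of 0.13 with 2 higher and 4 lower past 2-fold among 24. Over all compared genes 20.1% were higher and 12.9% lower. Smarcd3, the subunit known from heart and muscle, was the furthest down, at 37.9 and 4.03 RPKM. Histone chaperones, histone variants and linker histones were higher past 2-fold in 16 of 29 cases and lower in 3. Npm1, nucleophosmin, was 11.1-fold higher and the linker histone H1f2 was 12.2-fold lower.

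Genes of RNA, protein and small-molecule metabolism differed by list. Of 79 cytosolic ribosome genes 34 were at least 2-fold higher, none was 2-fold lower and 73 lay above 0 (median 0.93), so the list held 2.96% of the summed RPKM in the Hey1 line against 6.4% in the Hey2 line. Rpl22l1, a paralogue of Rpl22, was the furthest up, 17.2-fold (9.56 to 33.9), and was blank in the induced Hey1 line. Ribosomal protein genes have many processed pseudogenes, and the assignment of their reads is not given. Lin28 and other oncofetal RNA binders were higher past 2-fold in 13 of 25 cases and lower in 1, with Lin28b 10.9-fold higher. Splicing regulators showed 14 of 28 at least 2-fold higher and 5 at least 2-fold lower. Hnrnpa1 was 4.98-fold higher, and the SR proteins Srsf1 and Srsf10 were 5.15-fold and 5.58-fold higher, whereas Rbm20, the titin splicing factor, was 5.47-fold lower. Nucleotide and serine synthesis genes were higher past 2-fold in 29 of 44 cases and lower in 3, with the glycine decarboxylase Gldc 13.2-fold higher and the mitochondrial folate enzyme Aldh1l2 18.9-fold lower. Cholesterol synthesis genes were higher past 2-fold in 14 of 27 cases and lower in none, with Idi1, an isomerase of the isoprenoid steps, 6.6-fold higher. Proteasome genes were higher past 2-fold in 6 of 38 cases, a smaller share than the 20.1% of all genes (median 0.42), and lysosome and autophagy genes were lower in 10 of 36 cases and higher in 2 (median -0.46).

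Epithelial genes were the other large group higher in the Hey2 line, with 15 of 23 at least 2-fold higher and 2 lower (median 2.13). Cdh1, E-cadherin, stood at 2.11 and 2.33 RPKM in the Hey1 line and at 92.1 and 92.2 RPKM in the Hey2 line, 43.6-fold higher (34.3 to 56.2) in the uninduced pair. Epcam, an epithelial adhesion molecule also present in embryonic stem cells, was 45.7-fold higher (26.5 to 86.6). The desmosomal gene Dsp, which cardiomyocytes also use, was 4.49-fold lower. The epicardial list reached a median of 2.77 over 6 compared members, but its leading members were the keratins Krt8 (12.6-fold higher) and Krt19 (8.46-fold higher), which simple epithelia share, and the sulfatase Sulf1 (19.6-fold higher). Its defining factors were near the floor, Wt1 at 0.524 and 1.35 RPKM and Tcf21 blank. Lama1, the laminin alpha chain of embryonic basement membranes, was 62.4-fold higher (44.2 to 91), while the basement membrane list as a whole had 4 members higher and 4 lower past 2-fold among 17. The fibroblast and matrix list had a median of 0.16, with 5 of 28 higher and none lower past 2-fold. Over all compared genes the shares past 2-fold were 20.1% higher and 12.9% lower.

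Yolk sac endoderm genes split, with 6 of 16 higher and 5 lower past 2-fold. The shares over all compared genes, 20.1% higher and 12.9% lower, stand beside each list of this paragraph. Afp, alpha-fetoprotein, was listed at 58.5 and 42 RPKM in the Hey1 line and at 1.42 and 0.97 RPKM in the Hey2 line, 41.3-fold lower (25.6 to 71.2) in the uninduced pair. The endocytic receptor genes Lrp2 and Cubn stood higher in the Hey2 line, at 0.708 against 8.52 RPKM and at 0.346 against 5.21 RPKM, and Apoa1 was blank in both uninduced libraries. Gata4 and Gata6 on this list are also cardiac. Neural genes showed 8 of 11 higher and 3 lower past 2-fold, led by Stmn2 (23.1-fold higher), Otx2 (12.6-fold higher) and Sox2, and the latter 2 are also genes of the early epiblast. Tubb3, neuronal tubulin, was 4-fold lower. Of 11 skeletal muscle genes 8 were lower past 2-fold, led by Ckm (37.5-fold lower) and Tnnt1 (11.2-fold lower), genes that embryonic heart also uses. The median of that list, -2.23, ranged from -3.39 to -0.93 over the alternatives. Smooth muscle genes were lower in 8 of 13 cases, led by Des and by Pln and Acta2, which the early myocardium shares. Acta2 stood at 217 and 45.6 RPKM and Tagln at 71.1 and 82.5 RPKM. Of 6 compared endothelial genes 3 were higher past 2-fold, among them the VEGF receptor gene Flt1 at 0.301 and 3.6 RPKM. No member of the blood and macrophage list and no Hox gene met the rule for comparison.

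Signalling lists lay on both sides of the whole set, in which 20.1% of genes were higher and 12.9% lower past 2-fold. The Wnt list had 6 of 26 higher and 5 lower past 2-fold, with Tcf7, a Wnt effector, 29.2-fold higher (17.2 to 54.1) and Dkk3, of the Dickkopf family, 9.01-fold lower. Among 38 BMP, TGF-beta and Nodal genes 5 were higher and 7 lower past 2-fold, with Nodal 6.22-fold higher and Smad6, an inhibitory SMAD, 6.67-fold lower. FGF and ERK feedback genes were higher past 2-fold in 10 of 22 cases and lower in 1, with Il17rd 15.5-fold higher and Fgf1 5.69-fold lower. In the Notch list 3 of 23 were higher and 1 was lower past 2-fold. Those were Notch3 (6.45-fold higher), Notch1 (5.74-fold higher), the Notch effector Rbpj (2.57-fold higher) and Hes6 (3.2-fold lower). Interferon response genes were higher past 2-fold in 8 of 15 cases, led by the GTPase Gbp2 (45.2-fold, 25 to 91.2) and the factor Irf1 (13.6-fold). Gbp2 stood at 0.605 and 27.3 RPKM. It rested on 11 reads in the uninduced Hey1 line, near the floor, and was blank in the induced Hey1 line. The p53 list had a median of -0.02, the hypoxia list of 0.03 and the immediate early list of 0.14. The medians of the hypoxia, immediate early, imprinted, BMP, SWI/SNF, fibroblast and Notch lists went below 0 when both libraries were scaled to a median ratio of 1.

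Imprinted genes, expressed from 1 parental copy, lay on both sides. Of 28 compared members 7 were at least 2-fold higher and 6 at least 2-fold lower (median 0.05). Over all compared genes these shares were 20.1% and 12.9%. H19, a maternally expressed noncoding RNA, was 9.38-fold lower (8.43 to 10.5), at 230.2 and 24.5 RPKM. Its neighbour Igf2 was lower too, at 329 and 121 RPKM. Grb10, an adaptor of insulin and growth factor receptors, was 11-fold higher (9.25 to 13.1), the noncoding RNA Rian 8.1-fold higher and Peg10, a retrotransposon-derived gene of the placenta, 6.82-fold higher. Rian and Meg3, noncoding RNAs of 1 imprinted domain, differed alike, with Meg3 at 3.38 and 24.2 RPKM. Common reference genes did not stand still either: Gapdh was 3.07-fold lower (2.62 to 3.61) and Actb 3.09-fold higher (2.88 to 3.32), in the same directions under every scaling tried.

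Related genes of 1 family took opposite sides in some pairs and the same side in others. Both members were compared in 43 of 50 pairs. Many pairs set a muscle, heart or differentiated form against a general or embryonic form. Others set forms of the heart, or general forms, side by side. Both members were lower in the Hey2 line in 17 pairs and both were higher in 5. In 8 pairs both members passed 2-fold in opposite directions, and in 22 pairs the member with the higher RPKM changed from one line to the other. The sharpest exchange was between N-cadherin (Cdh2) and E-cadherin (Cdh1). Cdh2 stood at 61.6 RPKM against 2.11 RPKM of Cdh1 in the Hey1 line, and at 9.36 against 92.1 RPKM in the Hey2 line. The insulin-regulated glucose transporter gene Slc2a4 stood at 24.3 RPKM against 8.67 RPKM of Slc2a3 in the Hey1 line, and at 1.66 against 103 RPKM in the Hey2 line. Dnmt3a, with 10.1 and 9.14 RPKM, was nearly level between the lines while its relative Dnmt3b was not. Cardiac and cytoplasmic actin, Actc1 and Actb, had a ratio of 65.1 in the Hey1 line against 0.94 in the Hey2 line.

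Other exchanges ran through metabolism and the cell cycle. Muscle enolase Eno3 stood above Eno1 in the Hey1 line, at 239.7 and 85.8 RPKM, and below it in the Hey2 line, at 13.9 and 166 RPKM. A-type lamin (Lmna) stood at 23.6 RPKM in the Hey1 line and 6.44 RPKM in the Hey2 line, while the B-type lamin Lmnb1 stood at 11.7 and 64.4 RPKM. Cyclin D2 (Ccnd2) was listed at 35.3 and 7.29 RPKM and cyclin D1 (Ccnd1) at 4.7 and 15.7 RPKM. The ratios of 4 pairs of sarcomere isoforms differed less than these. Myh6 over Myh7 was 1.71 in the Hey1 line against 1.62 in the Hey2 line, and Tnni3 over Tnni1 was 0.662 and 0.62. The atrial over the ventricular regulatory light chain, Myl7 over Myl2, was 1.49 and 0.837, so the ventricular form led in the Hey2 line. For the essential light chains, Myl4 over Myl3 was 3.84 and 2.58. Hexokinase ran the other way from most pairs, since Hk1 was 4.49-fold lower and Hk2 1.7-fold lower, and Hk2 led in the Hey2 line.

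**Figure D3:**
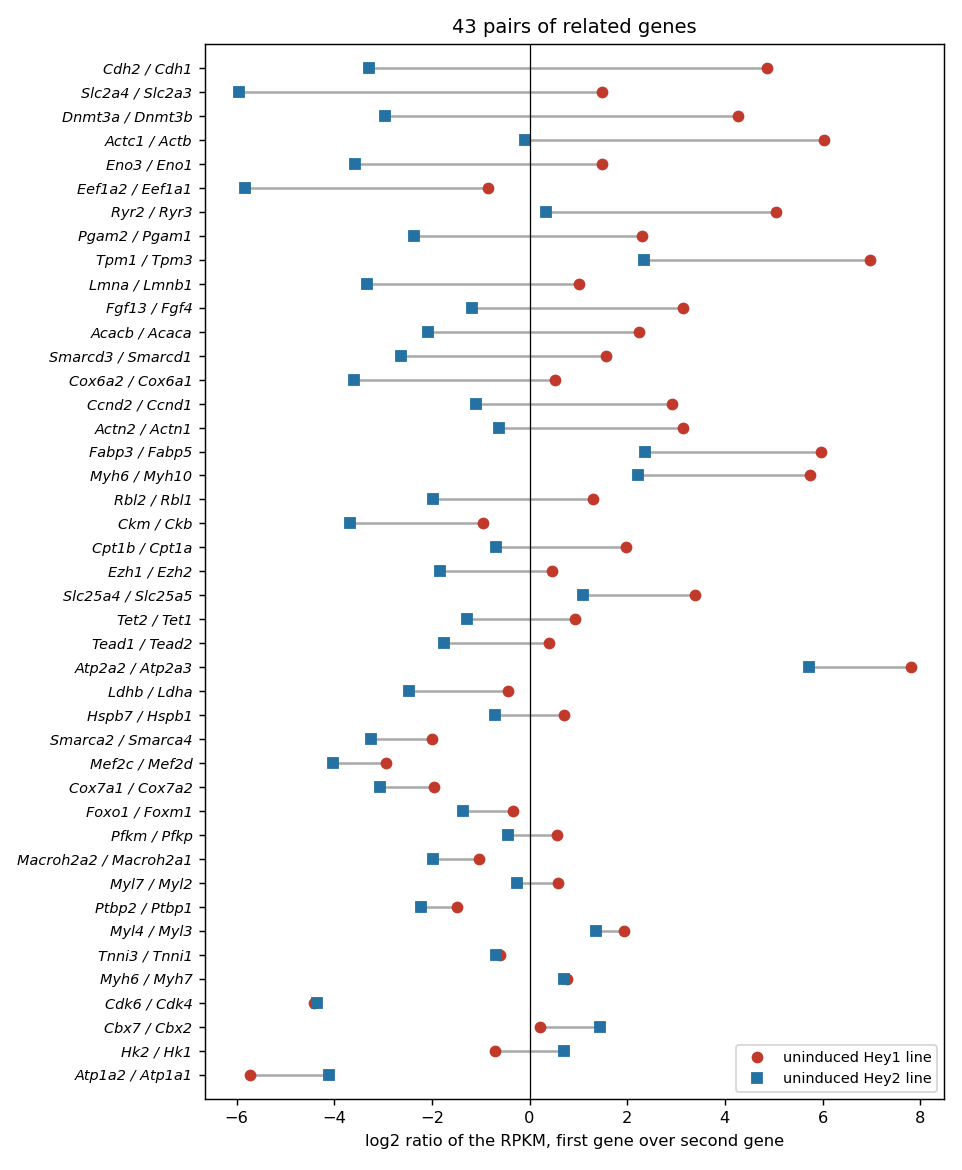
Log2 ratio of the RPKM of the first over the second gene (horizontal axis) for 43 pairs of related genes (vertical axis) in the uninduced Hey1-line library (circles) and the uninduced Hey2-line library (squares). Most squares lie left of their circles, with Cdh2 over Cdh1 the furthest apart, while Myh6 over Myh7 stays at 1.71 and 1.62.

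Families grouped by symbol describe the same differences without a chosen list. Many of their genes are also on the lists above, so they are no separate support. Of 120 symbol families with at least 10 compared genes, the lowest medians were those of Ndufb (-2.03, 10 of 10 lower past 2-fold), Myh (-1.85, 8 of 11), Ndufa (-1.72, 12 of 13), Pcdhga (-1.62, 12 of 12) and Cox (-1.53, 16 of 23). Ndufa and Ndufb are subunits of complex I. Pcdhga are gamma-protocadherins, neuronal adhesion molecules whose transcripts share constant exons, so their reads may not be told apart and their count is uncertain. The highest medians were those of Mcm (2.13, 8 of 10 higher past 2-fold), Snhg (2.01, 10 of 13), Srsf (1.76, 8 of 10), Utp (1.38, 9 of 11) and Nup (1.32, 16 of 20). These are helicase subunits, small nucleolar RNA host genes, splicing factors, ribosome biogenesis factors and nucleoporins.

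Other genes with large differences were named for their size of difference or their abundance and not through a list. Ccdc63, a coiled-coil gene that neighbours Myl2 on the RefSeq map, was listed at 74 and 0.914 RPKM. The noncoding 1700110I01Rik stood at 35.3 and 0.409 RPKM, and Mhrt, a noncoding transcript antisense to the cardiac myosin heavy chain genes, at 2458 and 163 RPKM. Strand handling is not given, so reads of Mhrt and of the overlapping myosin genes cannot be told apart. On the other side, Snhg14, the long antisense transcript of the Ube3a region, was 33.5-fold higher (22.1 to 53.2), and Car2, carbonic anhydrase 2, 17.7-fold higher (13.7 to 23.2). Myl9, a regulatory light chain of smooth and nonmuscle myosin, was 19.9-fold lower, at 973 and 49 RPKM.

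The line difference was nearly the same in the induced libraries. Over 10982 of the compared genes with both induced values, 2505 were at least 2-fold higher (22.8%) and 1354 at least 2-fold lower (12.3%). Of 2166 genes that were higher past 2-fold in the uninduced pair and had induced values, 2164 were also higher in the induced pair, 1922 of them past 2-fold (88.7%). Of 1440 genes that were lower past 2-fold, 1439 were also lower, 1197 of them past 2-fold (83.1%). The difference moved by a standard deviation of 0.30 across genes between the 2 pairs, and 89.6% of genes moved by less than 0.5. The induced libraries come from the same 2 lines and carry the overexpressed Hey genes, so they repeat the line contrast on other libraries and are not replicates of the uninduced state. The 3 genes past 2-fold that lay on the other side of 0 in the induced pair, named after their values were seen, were Zbtb8os, Gm7977 and Gm19897, with induced differences of -0.22, -0.17 and 0.08.

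**Figure D4:**
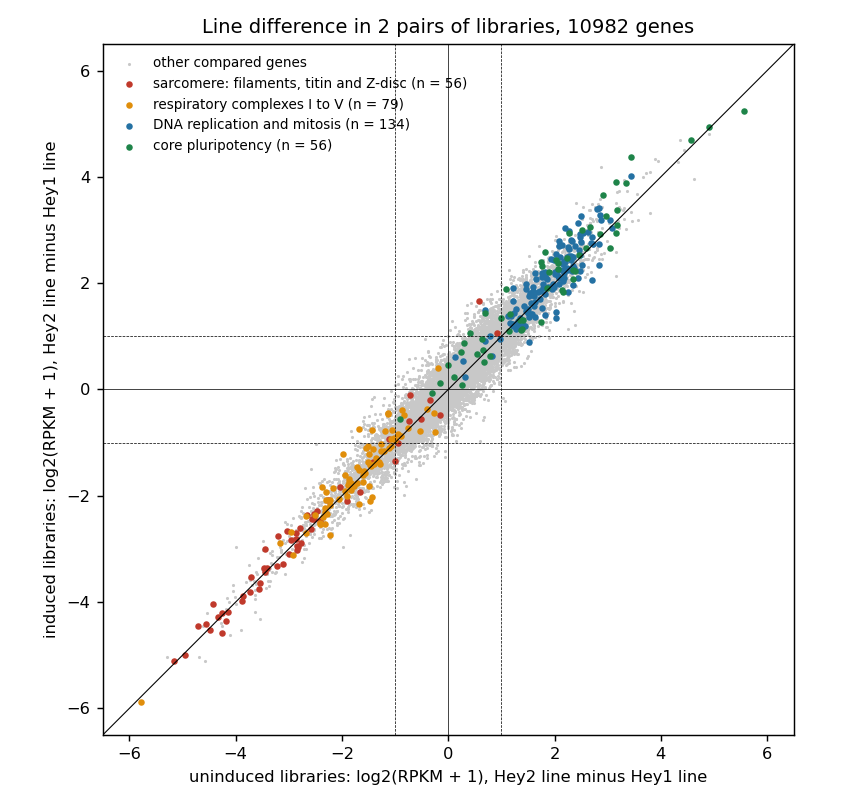
Difference of log2(RPKM + 1), Hey2 line minus Hey1 line, in the uninduced libraries (horizontal axis) and in the induced libraries (vertical axis) for 10982 genes, 1 point each. Points follow the diagonal of equal differences, with sarcomere genes at the lower left and Dnmt3b at the upper right (5.57 and 5.24).

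Promoters were searched for known motifs. RefSeq gives a promoter for 8920 of the compared genes, and the first listed start of each gene was searched on both strands over the 250 bases before it. The CArG box and the MEF2 site were searched as patterns that allow several letters at some positions, and the other motifs as fixed letters. The CArG box was held by 5 of 27 promoters of thick and thin filament genes (18.5%) and by 1.3% of the promoters of all compared genes. The MCAT element CATTCCT, known to bind TEAD factors, was held by 25.9% of filament promoters and 3.53% of all compared, and the GATA site AGATAA by 22.2% and 5.39%. The CCAAT box, bound by NF-Y, was in 67.2% of 64 mitosis promoters and 36.8% of all compared, and the CHR element TTTGAA, known from cell cycle genes, in 34.4% and 10.3%. The E2F site went the other way, in 4.69% of mitosis promoters and 7.49% of all compared. The GC box GGGCGG was in 25.9% of filament promoters and 61.7% of all compared, and the TATA box TATAAA in 11.1% and 5.93%. For 39 core pluripotency promoters the TATA box stood at 17.9% and the octamer ATTTGCAT at 2.56%, or 1 promoter.

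Across all genes past 2-fold the shares were closer to the background. The MEF2 site was in 3.48% of 1120 promoters of lower genes, 1.14% of 1762 promoters of higher genes and 1.51% of all compared. The E2F site TTCCCGC was in 5.98% of lower, 9.82% of higher and 7.49% of all compared promoters, and the CHR element in 9.46%, 13% and 10.3%. The E-box CACGTG, a palindrome known to bind basic helix-loop-helix factors, was in 8.21% of lower and 8.91% of higher promoters. Over all 27025 promoters of the RefSeq table the shares were 1.4% for the CArG box, 4.43% for MCAT, 10.3% for GATA, 34.5% for CCAAT, 16.3% for CHR, 32.9% for the GC box, 13% for the TATA box, 1.61% for the octamer, 3.01% for MEF2, 3.84% for E2F and 6.05% for the E-box. Some matches overlap, as the CArG box and the MEF2 site are both rich in A and T. Filament promoters also held fewer CpG dinucleotides, with a median of 4 in 250 bases against 17 for all compared genes and 18 for mitosis genes. A match describes these letters only and was not tied to binding.

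**Figure D5:**
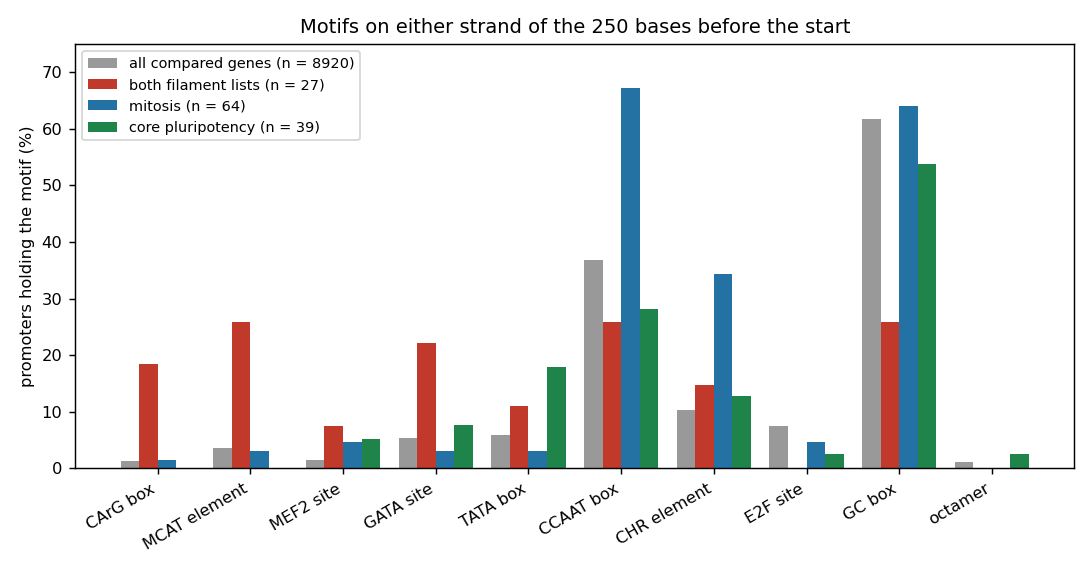
Share of promoters that hold each motif on either strand of the 250 bases before the start (vertical axis, percent) for all compared genes, both filament lists, mitosis and core pluripotency genes. CArG, MCAT and GATA matches are most frequent in filament promoters, and CCAAT and CHR matches in mitosis promoters (67.2% and 34.4%).

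At the limit of the rule lay genes of no particular group. Just inside the mean of 1 RPKM were Kctd16, at 0.99 and 1.02 RPKM, and Rnf227, at 0.836 and 1.17 RPKM. Just outside were Fstl3, at 1.11 and 0.89 RPKM, and Bend5, at 0.707 and 1.29 RPKM.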

How the data were processed

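RNA-seq libraries of 4 cardiomyocyte cultures were used, 1 for each line and treatment; the binding data of the series were not used here. The deposited values are RPKM per gene. Reads were aligned with Bowtie 1.0 to mm9, per the submitters' processing notes; for the read counter, the strand setting and multiply mapped reads the processing is not given in the sources used here. The authors' signed fold score columns in the deposited table were not used. Gene names are RefSeq symbols matched by Entrez ID (23334 of 23427).

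Differences are log2(RPKM + 1), Hey2 line minus Hey1 line, over genes listed in both uninduced libraries with a mean of at least 1 RPKM. With 1 library a side, genes past a 2-fold size were counted and no test was run. Whole reads were recovered from the RPKM steps. At the divisors used, 98.8% to 99.7% of the values came out whole, and the listed genes held 2296145 to 4182141 reads per library. These reads gave the intervals, which cover counting error only, and no count model was run on them because a side holds 1 library. Both steps were tested on simulated data. Motifs were searched in RefSeq promoters of build GRCm38.p6, which is not the build of the reads.

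The members and the 59 lists were chosen with earlier results of these data known. Genes named are the 15 largest differences each way, the 10 most abundant of each library, 3 leading members and the furthest opposite member of each list, pair members and markers; other list members named as examples were chosen after their values were seen. Some genes that this rule names are not reported here. Alternatives covered the pseudocount, the minimum level, 3 scalings, blanks as 0 and a read minimum. Python 3.11.15, NumPy 2.4.6, pandas 2.3.3, SciPy 1.17.1 and Matplotlib 3.10.9 were used.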

Additional observations from a re-analysis of the deposited data

Results flagged for a closer look

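Among 293 named genes with values in all 4 libraries, 10 lay on opposite sides of 0 in the uninduced and the induced pair. None of these differences between the pairs was tested, since each pair has 1 library a side. The largest was that of Rnf227, with a line difference of 0.24 uninduced and -0.72 induced, and it was the 1 gene that moved by at least 3 times the standard deviation across genes. The mesendoderm factor Mixl1 stood at 0.53 and -0.12. The mesenchymal factor Twist1 stood at -0.51 and 0.36, and the interferon factor Irf9 at -0.33 and 0.09. The ATP synthase gene Atp5g2 stood at -0.20 and 0.40, the ligand Bmp4 at -0.16 and 0.12, and the actinin Actn1 at -0.16 and 0.06. The remaining genes were close to 0 in the uninduced pair: the nonmuscle myosin Myh10 at -0.04 and 0.25, the ribosomal Rplp1 at -0.01 and 0.23, and Mir3471-1 at -0.02 and 0.03.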

How the results depend on the processing

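With a pseudocount of 5 RPKM, 964 genes were at least 2-fold higher and 773 at least 2-fold lower. A minimum of 50 reads per library left 7280 genes, of which 1340 were higher and 814 lower; fewer genes enter by construction. Under the other 7 alternatives both counts stayed within 1.5 times 2251 and 1444. Of 57 lists with a value, 31 had a median of at least 1 in size, and 30 of these kept their direction under all 9 alternatives, while 16 stayed past 1 in size under each. Wide ranges were those of the skeletal muscle list (-3.39 to -0.93), cardiac ion channels (-2.2 to -0.67), natriuretic and chamber genes (-2.96 to -1.04), smooth muscle (-1.97 to -0.26) and the primitive streak (0.45 to 2.47). The exception in direction was the neural list, whose median of 1.41 became -3.2e-03 under that read minimum; the cause was not tested. Of the other 26 lists, 12 took both signs. No paired analysis was possible because each group has 1 library and no test was made. Depth limits low genes: the median listed gene of the uninduced Hey2 line rests on 74 reads.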
